A study of Camelus dromedarius with 4 samples.

Results

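Myelin is the lipid-rich sheath that oligodendrocytes wrap around axons in the central nervous system. It is held together by a small set of abundant proteins, among them MBP on the inner face of the membrane and MAG at the contact with the axon, and by galactolipids whose synthesis depends on UGT8. The transcripts of 9 genes of this sheath and of the oligodendrocyte, MBP, MOG, MAG, MOBP, CNP, MAL, CLDN11, UGT8 and ERMN, were followed in the supraoptic nucleus (SON) of the dromedary camel in winter and in summer. The genes were chosen by name, and all 9 were found among 16049 gene symbols with season means. The SON holds the large neurons that send vasopressin and oxytocin to the posterior pituitary, and myelinated axons run through it.

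RNAseq libraries came from SON tissue of healthy adult male camels of the Tergui breed, hydrated before slaughter, with 2 libraries from winter (replicates 2 and 3) and 2 from summer (replicates 1 and 2). Winter and summer animals were slaughtered on different days at different places, so season, place and day cannot be told apart. The study counts as many camels as libraries in each season, and no source ties a library to an animal by name. The RNA was stranded total RNA from which ribosomal RNA had been removed, and 4379162 to 6902037 reads per library fell on gene models. As a check of the tissue, the symbol the authors list as a putative vasopressin gene had a mean normalized count of 11822 in summer and 2560 in winter, and OXT (oxytocin) had 592 and 621.

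For each symbol the deposited table gives 1 mean per season. Each is the average over the 2 libraries of that season of the read count divided by the size factor, which scales a library for its depth. Such a mean is called a mean normalized count here. Because reads are whole, a mean can be solved for the reads of its 2 libraries, and where only 1 pair of whole numbers fits, library values are known. This was so for MOBP, MAL and CLDN11 in summer. In winter 2 pairs fit for MOBP and for MAL and 3 for CLDN11, so each pair is given. The other 6 genes have so many reads that many pairs fit (57 in summer and 68 in winter for UGT8, 157 and 405 for MBP), so no value per library and no test can be given for them. Levels are compared between seasons within a gene and never between genes, since transcript lengths were not used here. In dissected tissue, fewer oligodendrocytes and less RNA in each of them cannot be told apart.

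Of the 9 genes, 8 had a higher mean in winter than in summer and UGT8 had a lower mean. Over all 13805 symbols whose mean reached 10 in either season and was above 0 in both, 46.2% were higher in winter, and among the 7339 symbols with a mean of at least 100 it was 48.5%. The median log2 ratio of winter to summer was 0.19 over the 9 genes and -0.04 over all symbols, whose 5th and 95th percentiles were -0.96 and 0.81. Summed over the 9 genes, the mean normalized count came to 15727 in summer and to 20001 in winter (log2 ratio 0.35). Most of this difference came from MBP alone, whose means were 4571 and 7277. The direction for MAL depends on the scaling, because with TMM factors its log2 ratio ran from -0.01 to 0.02 over the pairs of reads that fit, and the other 8 genes kept their direction under every scaling tried.

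The proteins that compact the sheath came first. MBP (myelin basic protein), which draws the cytoplasmic faces of the membrane together, had a mean of 4571 in summer and 7277 in winter. That is 1.59-fold higher in winter, or 0.67 on the log2 scale. These means rest on 8023 to 8429 reads in summer and 13782 to 19272 in winter, so that counting error alone gives a 95% interval of 1.55 to 1.64 for the fold. MOBP, a small basic protein of compact myelin, had a mean of 173 in summer and 198 in winter, a 1.14-fold ratio whose counting interval of 0.989 to 1.32 includes no difference. MBP and MOBP, although both basic proteins of compact myelin, thus had different season ratios, and this difference was not tested across libraries.

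Among the membrane proteins of the sheath, MAG (myelin-associated glycoprotein), which lies on the innermost wrap facing the axon, had the largest ratio of the 9 genes. Its mean was 1028 in summer and 1657 in winter, 1.61-fold higher in winter (log2 ratio 0.69, counting interval 1.52 to 1.71). MOG (myelin oligodendrocyte glycoprotein), which lies on the outermost wrap, had a mean of 3548 in summer and 3929 in winter, a 1.11-fold ratio with a counting interval of 1.07 to 1.15. MAL, a proteolipid that takes part in sorting proteins to the myelin membrane, had nearly equal means of 202 and 205, and its fold of 1.02 had a counting interval of 0.885 to 1.16. CLDN11, the claudin that forms the tight junctions between the layers of the sheath, had a mean of 323 in summer and 364 in winter, 1.13-fold higher (1.01 to 1.26).

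CNP, a phosphodiesterase of the cytoplasmic channels of non-compact myelin, had a mean of 2978 in summer and 3589 in winter, a 1.21-fold ratio (1.16 to 1.25). ERMN (ermin), a cytoskeletal protein of mature oligodendrocytes, had a mean of 1176 in summer and 1453 in winter, a 1.23-fold ratio (1.17 to 1.31). UGT8 makes galactosylceramide, the main glycolipid of myelin, and it alone of the 9 had the higher mean in summer. Its mean was 1728 in summer and 1331 in winter, 1.30-fold higher in summer, or -0.38 as the log2 ratio of winter to summer.

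**Figure D1:**
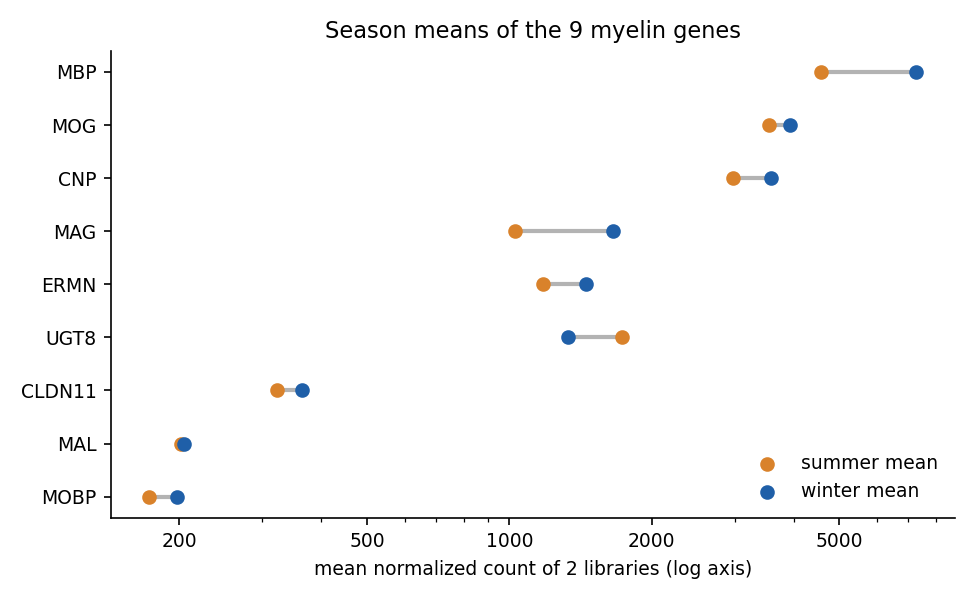
Mean normalized count of each of the 9 genes in summer (orange) and winter (blue) on a log axis, each point the mean of 2 libraries, with no error bar because library values of most of these genes are not known. MBP and MAG show the widest gaps, at 1.59-fold and 1.61-fold, and UGT8 is the gene with the summer point on the right.

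Counting error is the smaller part of the error here, because 2 libraries of 1 season can differ by far more than their reads predict. MBP and MAG were past 1.5-fold in winter, which is 2 of 9 genes, and 10.1% of all 13805 symbols were past it in the same direction (6.74% of the symbols with a mean of at least 100). None of the 9 was past 2-fold, against 2.7% of all symbols for winter and 4.53% for summer (0.954% for winter among symbols with a mean of at least 100). A ratio at least as far from 1 as that of MBP was found for 17.6% of all symbols, and for MAG the share was 16.9%. Among the 7339 symbols with a mean of at least 100, as all 9 genes have, the 5th and 95th percentiles were narrower, at -0.52 and 0.65, and MBP and MAG lay above them. There 6.62% of symbols had a ratio at least as far from 1 as that of MBP and 6.19% as that of MAG, and 4.52% and 4.26% had a higher ratio. Symbols with known library values and a mean of at least 50 had a common biological coefficient of variation of 0.364. That gives a standard error of 0.53 for a log2 ratio between 2 libraries and 2 libraries. Only 0.258% of symbols with a winter mean of at least 200 have a single winter solution. The spread at the higher means of MBP, MAG and UGT8 was therefore not measured, and this standard error may differ from theirs. Set against that standard error, the log2 ratio of MAG was 1.31 times as large, that of MBP 1.28 times, and that of UGT8 -0.718 times, so none of the 9 ratios was as large as 2 such standard errors.

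For MOBP, MAL and CLDN11 the reads of single libraries could be read from the summer means, and from the winter means only as a choice between pairs. In each season library A is the library with the larger size factor and library B the other, and the table does not name the replicate that each is. In summer MOBP had a normalized read count of 196 in library A (181 reads) and 149 in library B (131 reads). In winter 2 pairs of reads fit its mean, either 201 and 194 normalized reads in libraries A and B or 341 and 53.9. In the first pair the winter libraries lay close together, the lower of them just below the higher summer library. In the second pair they enclosed the summer libraries.

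MAL had 241 normalized reads in summer library A and 163 in summer library B. In winter it had either 201 and 208 or 341 and 68.7. The summer libraries were the wider pair in the first case and lay between the winter libraries in the second. CLDN11 had 380 normalized reads in summer library A and 266 in summer library B. In winter the pairs that fit were 324 and 403, 464 and 263, or 185 and 543. The seasons overlapped for each of the 3 genes in every pair, as they did for 69.1% of the 13120 symbols for which this could be said.

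**Figure D2:**
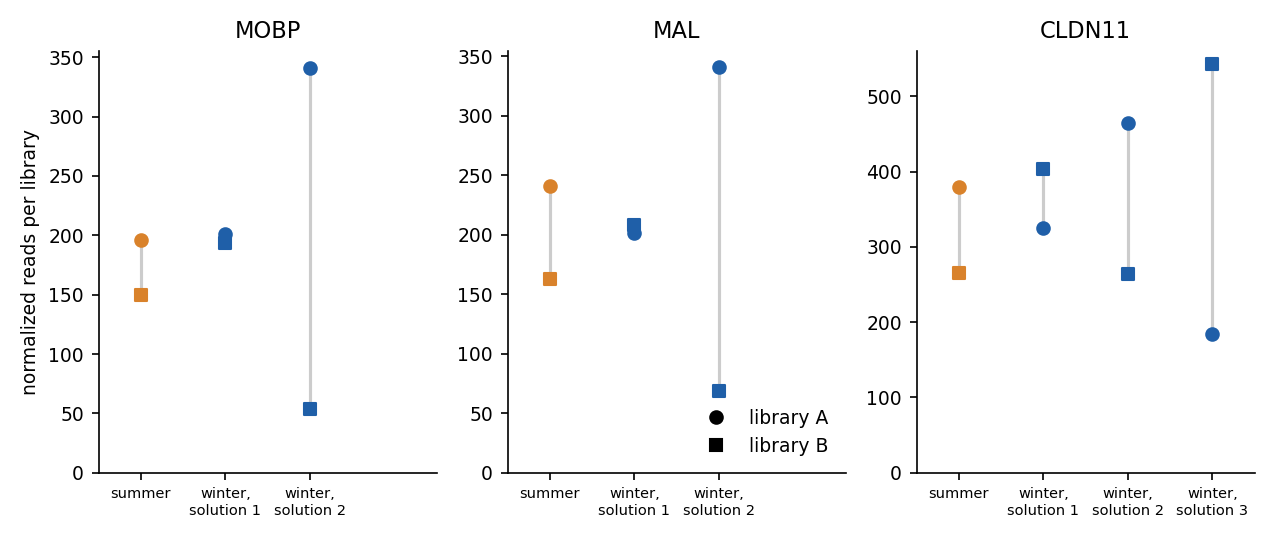
Normalized reads per library of MOBP, MAL and CLDN11, with circles for library A and squares for library B, orange for summer and blue for each pair of whole reads that fits the winter mean. Summer library A lies above summer library B in all 3 panels, and the winter points overlap the summer points in every solution.

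The season difference was tested for these 3 genes with edgeR's quasi-likelihood test, fitted together with the 7658 symbols that have known reads in every library and Benjamini-Hochberg adjusted over them. For MOBP the log2 fold change of winter to summer was 0.19 to 0.20 over the pairs that fit, with a standard error of 0.33 to 0.74 and an adjusted p of 0.983 to 0.989. For MAL it was 0.02 to 0.03, with a standard error of 0.34 to 0.69 and an adjusted p of 0.997 to 0.999. With limma-voom and the second pair of reads, the direction turned for MOBP and MAL, with log2 fold changes of -0.39 and -0.45. For CLDN11 it was 0.17, with a standard error of 0.36 to 0.71 and an adjusted p of 0.983 to 0.990. These differences were smaller than their standard errors, which are wide enough that a change of 1.5-fold in either direction could have been missed. Larger changes can be missed too. In a simulation at the spread common to the fitted symbols, 10 of 200 symbols changed 4-fold passed an adjusted p of 0.05.

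By the quasi-likelihood test 0 of the 3 genes passed an adjusted p of 0.05. Of all 7658 symbols 0 passed (0%), and 152 had an unadjusted p under 0.05. Among these 7658 symbols, edgeR's exact test called 1, DESeq2 called 1 and limma-voom called 0. By the rule used in the study, an unadjusted p under 0.05 and more than 2-fold, 0 of the 3 genes passed. Of the 7658 fitted symbols 0.849% passed it for winter and 0.823% for summer. Only 0.258% of symbols with a winter mean of at least 200 have a single winter solution, so the fitted symbols are mostly those with lower means. Without winter library A, and with the second pair of reads, the log2 fold changes of MOBP and MAL were -1.68 and -1.55. With the first pair they were 0.16 and 0.04, so the result depends on the library left out and on the pair of reads. With 2 libraries a season an exact permutation test of a single gene cannot give a two-sided p below 0.333.

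The other genes of the mature oligodendrocyte gave a broader view of the same cell. Of 40 such genes, chosen with earlier results of these data known, 37 had season means and 36 a mean of at least 10. Their median log2 ratio was 0.16, and 23 of the 36 were higher in winter, against 46.2% of all symbols. Past 1.5-fold were 8 in winter and 1 in summer, against 10.1% and 12.2% of all symbols, and none was past 2-fold. TF (transferrin), which oligodendrocytes make, had a mean of 12066 in summer and 12829 in winter (1.06-fold), and ENPP2 (autotaxin) had 3287 and 3228 (0.982-fold). TF and ENPP2 had season ratios close to 1, unlike the 8 genes past 1.5-fold in winter, and neither has library values for a test.

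Of the other mature genes, 22 could be fitted at each pair of reads, and 0 passed the 2-fold rule. In 25 the order of libraries could be read. In every solution the winter libraries were both higher than the summer libraries only for TPPP, a tubulin-binding protein of oligodendrocytes (1 of 25, against 8.19% of all symbols), and the reverse held only for TSPAN2, a tetraspanin of the sheath (1 of 25, against 10.1%). TPPP had 669 and 536 normalized reads in winter libraries A and B in the first of 3 solutions and 329 and 372 in the summer libraries, and its adjusted p by the quasi-likelihood test was 0.983 to 0.990. TPPP and TSPAN2 were named after their values were seen.

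UGT8 belongs with the enzymes of galactolipid metabolism, of which 9 of 10 listed had a mean of at least 10. Their median log2 ratio was 0.20 and 6 of the 9 were higher in winter, against 46.2% of all symbols. UGT8 thus had the opposite direction to 6 of these enzymes and the direction of the other 3. Among those 3, ARSG, named after its values were seen, had a log2 ratio of -0.44, beside -0.38 for UGT8. A ratio at least as far from 1 as that of UGT8 was found for 39.4% of all symbols, and for 26.2% of those with a mean of at least 100. FA2H, which hydroxylates the fatty acids used for galactosylceramide, had a mean of 590 in summer and 758 in winter (1.28-fold). PSAP, the precursor of the saposins that help break glycolipids down, had 5519 and 5421 (0.982-fold), and ELOVL1, a fatty acid elongase, had 349 and 367 (1.05-fold). None of the 9 was past 1.5-fold, against 10.1% of all symbols for winter and 12.2% for summer. Of the 8 that could be fitted 0 passed the 2-fold rule.

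The regulators of the oligodendrocyte lineage, several of which act on myelin genes, had a median log2 ratio of 0.50, beside 0.19 for the 9 genes. Of the 17 regulators whose mean reached 10, 13 were higher in winter, against 46.2% of all symbols. Past 1.5-fold were 7 and past 2-fold 4, all in winter, against 10.1% and 2.7% of all symbols in that direction. ZNF488, 1 of the 4, had only 9 and 6 reads in the summer libraries. MYRF, the factor that drives myelin genes in maturing oligodendrocytes, had a mean of 794 in summer and 2144 in winter (2.70-fold). SOX10, a factor of the whole lineage, had 683 and 1490 (2.18-fold), and SOX8, its close relative, had 633 and 984 (1.56-fold). MYRF and SOX10 have too many reads for library values, so their ratios carry no test. For SOX8 8 combinations of reads fit, more than the 6 allowed in the fit, and the winter libraries were both above the summer libraries in 3 of the 8 and overlapped them in the others.

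**Figure D3:**
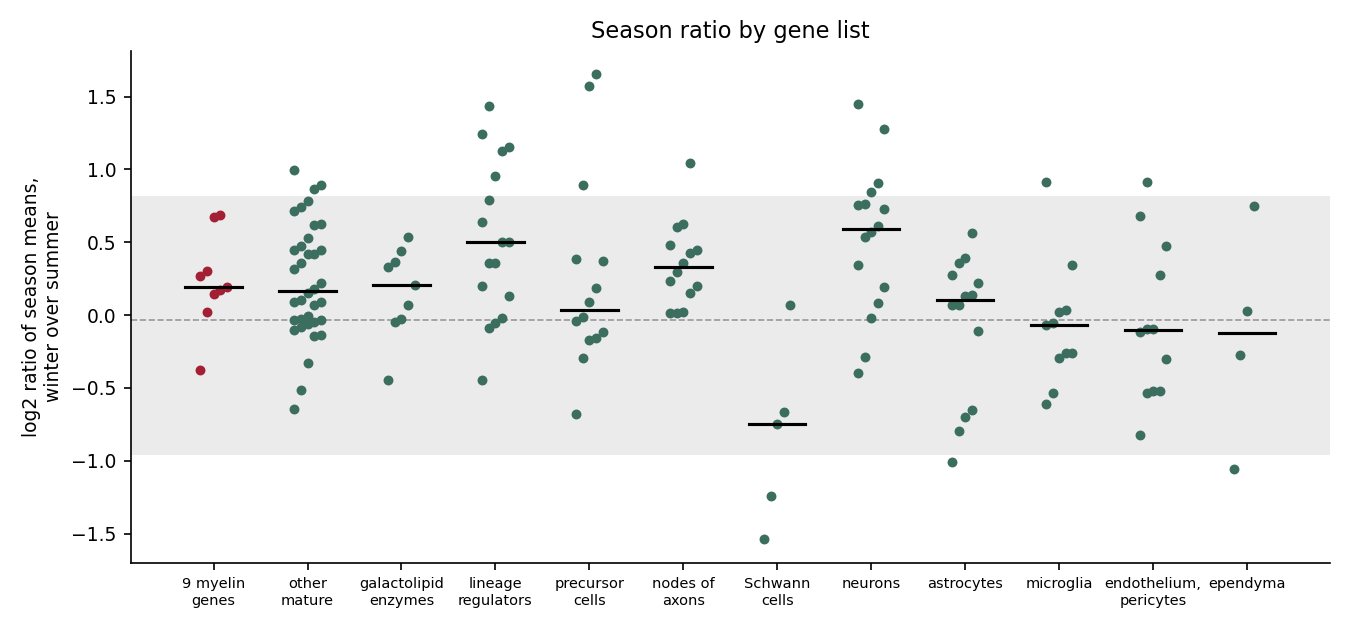
Log2 ratio of the winter to the summer mean for each gene of each list (points) with the list median (black bar), the 9 genes in red, the median of all 13805 symbols as a dashed line and the range from their 5th to their 95th percentile shaded. "Other mature" are the other genes of the mature oligodendrocyte. The 9 genes lie inside this range. MBP and MAG lie above the 95th percentile of 0.65 for symbols with a mean of at least 100. More than 2-fold higher in winter are 4 lineage regulators, 2 precursor markers, 2 neuronal markers, 1 node gene and 2.7% of all symbols.

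NKX2-2, a homeodomain factor needed for oligodendrocytes to mature, is a regulator with known library values. It had 66.4 and 62.4 normalized reads in winter libraries A and B and 29.3 and 25.1 in summer libraries A and B. The winter libraries were both above the summer libraries, by 2.37-fold in the means. The log2 fold change was 1.24 with a standard error of 0.46. NKX2-2 passed the 2-fold rule but not the adjustment (edgeR quasi-likelihood, adjusted p = 0.982). Of regulators with a single solution it was 1 of 8 past the rule, against 0.849% of the 7658 fitted symbols for winter. It no longer passed the rule without winter library A or winter library B or by DESeq2, with log2 fold changes of 1.19, 1.28 and 1.24.

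The precursors of oligodendrocytes showed no common direction, with 7 of 14 markers higher in winter and a median log2 ratio of 0.04. PTPRZ1, a receptor phosphatase of precursor and astroglial cells, had a mean of 1346 in summer and 1333 in winter. VCAN (versican) had 668 and 600.2, and TNR (tenascin R) had 395 and 517. CACNG4, a subunit that accompanies glutamate receptors in precursors, stood out with 92.8 and 47.6 normalized reads in the winter libraries A and B against 19.5 and 25.1 in the summer ones. This log2 fold change of 1.67 had a standard error of 0.54 and an adjusted p of 0.982 by the quasi-likelihood test. It was past the 2-fold rule, as 1 of 8 markers with a single solution, against 0.849% of the 7658 fitted symbols for winter. Without winter library A it was 1.09 and did not pass the rule.

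**Figure D4:**
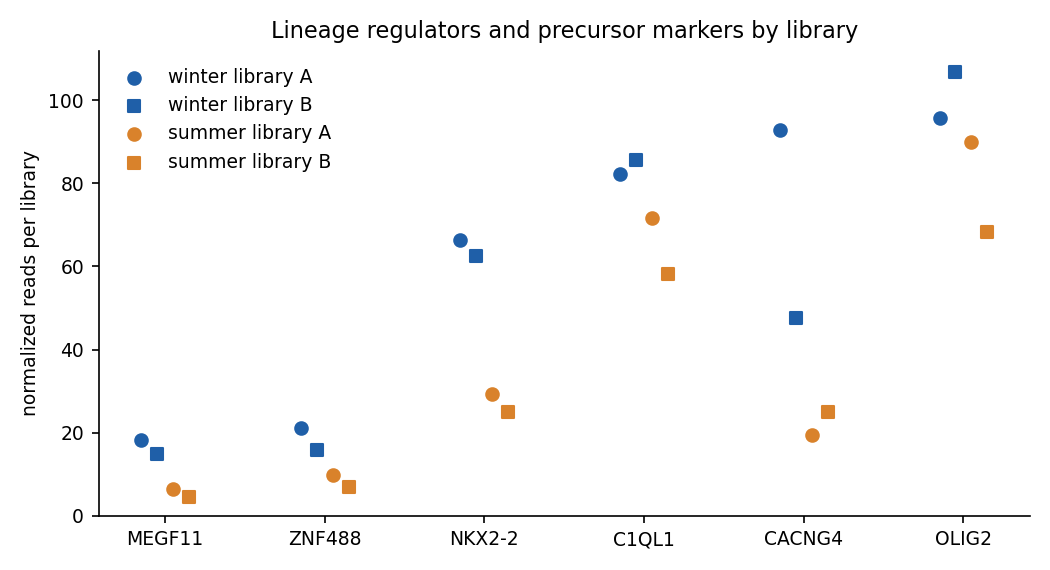
Normalized reads in each of the 4 libraries for the 6 lineage regulators and precursor markers with a single solution whose winter libraries (blue) both lie above the summer libraries (orange), circles for library A and squares for library B. NKX2-2 shows close winter values of 66.4 and 62.4, while CACNG4 spreads from 47.6 to 92.8.

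In every solution the winter libraries were both higher than the summer libraries for 3 of 15 regulators (NKX2-2, OLIG2 and ZNF488) and for 3 of 13 precursor markers (CACNG4, C1QL1 and MEGF11), against 8.19% of all symbols. OLIG2, the factor that founds the lineage, had 95.8 and 107 normalized reads in winter and 90.0 and 68.4 in summer, so its groups were separate by a narrow margin. OLIG1, its neighbour in function, had means of 115 in summer and 222 in winter (1.94-fold), and its libraries separated in 1 of 3 solutions and overlapped in the others. OLIG1, OLIG2, ZNF488, C1QL1 and MEGF11 were named after their values were seen. The count of genes in these 4 lists past the 2-fold rule was 2 in all (NKX2-2 and CACNG4). It was not stable when 1 library was left out, and neither was the count over all symbols.

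The 2 summer libraries differed from each other in these genes and in markers of other cell types. Summer library A had the higher value for all 3 of the 9 genes with library values, by 0.39 on the log2 scale for MOBP, 0.51 for CLDN11 and 0.56 for MAL. It was the higher library for 52.5% of 8204 symbols with a mean of at least 50 and a single summer solution, with a median of 0.04. Among the other genes of the mature oligodendrocyte it was higher for 12 of 17, with a median of 0.36, and among the galactolipid enzymes for 6 of 8, with a median of 0.51. The differences between the summer libraries in MOBP, MAL and CLDN11 were each larger than the log2 ratio of the season means of the same gene.

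The same library had less of the markers of neurons and astrocytes. All 10 neuronal markers with summer library values were lower in library A, with a median of -1.34, and their summed normalized reads were 1294 in library A and 2781 in library B. All 5 astrocyte markers were lower too, with a median of -1.63 and sums of 285 and 835. Of 5 microglial markers 4 were higher in library A, with a median of 0.76. The part of these marker differences in the values of the 9 genes was not tested. With the summer libraries scaled by TMM, the median of all symbols was 0.27, that of the 3 genes 0.75 and that of the neuronal markers -1.10.

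**Figure D5:**
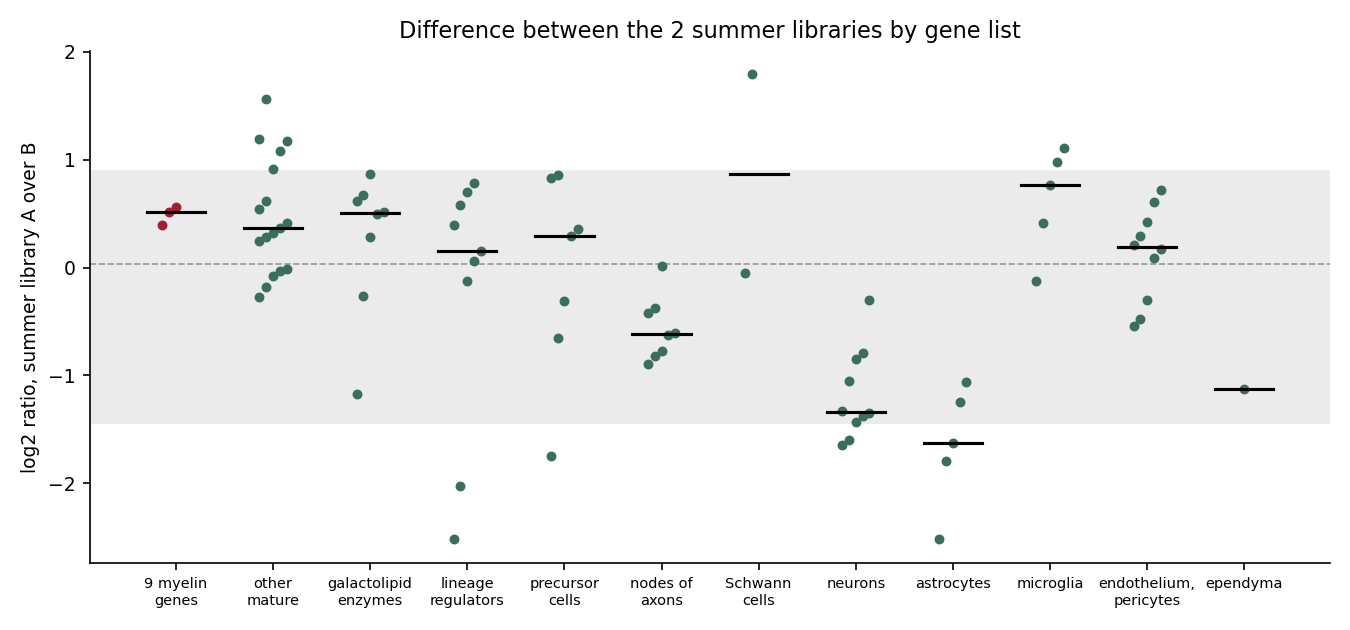
Log2 ratio of summer library A to summer library B for each gene of each list with a single summer solution and a mean of at least 50 (points), the list median (black bar), the median of all 8204 such symbols (dashed) and the range from their 5th to their 95th percentile (shaded), with MOBP, CLDN11 and MAL in red. The 3 genes lie between 0.39 and 0.56, while all neuronal and astrocyte markers lie below 0.

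The winter libraries could be compared only in genes with a single winter solution and a mean of at least 50, which none of the 9 has. Winter library A was higher for 52.9% of 3577 such symbols, with a median of 0.04, and for 4 of 4 astrocyte markers, with a median of 1.38. Among the lineage regulators it was higher for 4 of 5, with a median of 0.78, but the winter libraries differed by only 0.09 in NKX2-2 and by -0.16 in OLIG2. Of the other mature oligodendrocyte genes 2 of 4 were higher in it.

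Between the seasons, no fitted marker of another cell type passed an adjusted p of 0.05 by edgeR's quasi-likelihood test, and only NEFH, a neurofilament of neurons, passed the 2-fold rule, in 2 of 3 solutions. Of 16 neuronal markers 13 had a higher mean in winter, against 46.2% of all symbols. Past 1.5-fold in winter were 8 of them and past 2-fold 2, against 10.1% and 2.7% of all symbols, and none was past 1.5-fold in summer. Their median log2 ratio was 0.59, with sums of 14811 in summer and 17283 in winter. Of 14 astrocyte markers 9 were higher in winter, with a median of 0.10, but their sum was 47767 in summer and 33265 in winter, since GFAP (25074 and 14423) and S100B (11788 and 7490) had higher means in summer. The microglial list had a median of -0.07, the list of endothelial cells and pericytes -0.11, and the ependymal list -0.12. The part of these differences in the season ratios of the 9 genes was not tested.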

How the data were processed

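RNAseq of the SON was analysed in 4 libraries grouped by the season in the labels. The authors used TopHat to align paired-end reads to a dromedary assembly of their own and HTSeq to count them. The deposited count files hold unnormalized reads for 64989 gene models without gene names, and served here for depth only. In these files 46.4% to 55.2% of reads lay outside gene models, 20.2% to 26.9% had several alignments and 0.0338% to 0.0576% were ambiguous. Per symbol, the authors deposited a signal (counts over DESeq size factors, averaged within a season), a ratio (edgeR's fold change) and an edgeR p-value. The ratio and p-value columns were not used.

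The season means have 6 significant digits. The value of 1 read in each library was found from the low means, and each mean was solved for whole reads. Size factors ran from 0.877 to 1.33. The 7658 symbols with a single solution whose mean reached 10 in either season were fitted with edgeR 4.0.16 in R 4.3.3 (glmQLFit with legacy FALSE, glmQLFTest). Genes of the lists with 2 to 6 solutions were added at each solution in turn, and orders of libraries were read with up to 12. The planned test assumed that library reads could be recovered for all 9 genes. Counting intervals (95%) treat reads as Poisson and cover counting error only. Ratios between summer libraries used a pseudocount of 0.5. The scripts were tested on simulated data, where 165 of 200 symbols changed 4-fold passed the 2-fold rule and 10 passed the adjustment.

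The 9 genes and the lists were chosen with earlier results of these data known. Named beside the 9 were the 3 genes of a list with the highest means and those past the 2-fold rule or the adjustment, except for genes not reported here. Naming symbols by likeness of profile could not be applied, since none of the 9 has a single solution in winter. The alternatives tried included edgeR's exact test, limma-voom 3.58.1, DESeq2 1.42.0, the legacy dispersion fit, TMM, RLE, upper quartile and total scaling, other filters and fold thresholds, and each library left out. All 9 symbols match 1 protein-coding gene each in RefSeq's annotation of mCamDro1.pat, whose coordinates are not given because the authors' assembly differs.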

Additional observations from a re-analysis of the deposited data

How the results depend on the processing

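The median log2 ratio of the 9 genes, 0.19, was 0.16 to 0.42 over TMM, RLE, upper quartile and total scaling and 0.19 with a pseudocount of 1. The median of all symbols with a single solution was -0.12 with the authors' scaling and -0.02 with total reads. The count past an adjusted p of 0.05 was 0 in each alternative run. The count of the 3 past the 2-fold rule was likewise 0 in each alternative with all 4 libraries. Fits that leave out 1 library are given below by their log2 fold changes. By season means alone, the count of the 9 genes more than 2-fold apart was 0, and 2 at 1.5-fold. The 2 genes of the oligodendrocyte lists past the 2-fold rule became 1 with DESeq2, and this count also moved when 1 library was left out.

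With limma-voom and the second pair of reads the log2 fold change turned to -0.39 for MOBP and -0.45 for MAL, and with TMM that of MAL reached -0.010. With 1 library left out and over all pairs of reads that fit, the log2 fold change ran from -1.68 to 0.98 for MOBP. It ran from -1.55 to 0.76 for MAL and from -0.80 to 0.75 for CLDN11. With the first pair alone the ranges were 0.009 to 0.40 for MOBP, -0.23 to 0.33 for MAL and -0.06 to 0.45 for CLDN11. Over all 7658 symbols the fit called 0, 269 without summer library A and 213 without summer library B, and the cause was not tested. The lone library of a season is then assumed to vary like the other season. Symbols past the 2-fold rule numbered 65 for winter and 63 for summer, and 122 and 46 with total scaling. DESeq2 gave 28 and 32. No paired analysis was possible because winter and summer libraries came from different camels, each slaughtered in 1 season. Leaving out a library was not run for the median of the 9 genes and for the 6 genes without library values.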

Other observations

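Genes for proteins of the nodes of Ranvier and of the paranodes, where myelin ends and the axon is bare, mostly had higher means in winter. All 14 with a mean of at least 10 were higher in winter by some amount, against 46.2% of all symbols, with a median log2 ratio of 0.33. The log2 ratios of CNTN1, CNTNAP2 and NRCAM were only 0.019, 0.017 and 0.015, each smaller than that of MAL, whose direction depends on the scaling. The direction of these genes under other scalings is not given here. ANK3 (ankyrin G), the scaffold of the node, had a mean of 6744 in summer and 7478 in winter (1.11-fold). NFASC (neurofascin), which has a glial and an axonal form that these counts do not separate, had 2003 and 2791 (1.39-fold), and CNTN2, an adhesion protein beside the paranode, had 1544 and 2346 (1.52-fold). CADM3, an axonal adhesion protein, was the 1 gene past 2-fold (2.06-fold), with 170 and 65.6 normalized reads in winter libraries A and B and 41.2 and 72.9 in summer. Without winter library A its fold was 1.15. None of the 10 genes that could be fitted passed the 2-fold rule by edgeR's quasi-likelihood test, and in none were the seasons' libraries separate in every solution. In the summer libraries 7 of 8 were lower in library A, with a median of -0.62, as were the neuronal markers.

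Genes of Schwann cells, which make the myelin of peripheral nerves, were 5 with a mean of at least 10, and 4 of them had a higher mean in summer, with a median log2 ratio of -0.75. PMP22, which other cells also make, had a mean of 272 in summer and 285 in winter. PMP2, a lipid carrier of peripheral myelin, had 104 and 29.6 normalized reads in the summer libraries A and B and 19.6 and 37.0 in winter, so 1 summer library held most of them. None of the 5 passed the 2-fold rule.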
